A study of Mus musculus with 5 samples.

Results

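T cell costimulatory and checkpoint molecules are surface proteins through which an antigen-presenting cell adds a stimulatory or an inhibitory signal to the one a T cell receives from antigen. The 10 genes examined here were chosen by symbol, and all 10 were found among the 41388 genes of the count table. They were Cd40, Cd80, Cd86, Cd83 and Icosl on the costimulatory side, and Cd274, Pdcd1lg2, Lag3, Havcr2 and Vsir on the inhibitory side. Microglia, the resident macrophages of the brain, carry little of the classical costimulatory ligands at rest and can acquire them when activated. The B7 proteins CD80 and CD86 bind CD28 and CTLA-4 on T cells, ICOSL binds ICOS, and the programmed death ligands PD-L1 (Cd274) and PD-L2 (Pdcd1lg2) bind PD-1. CD40 is different in kind, since it is a TNF receptor family member that receives CD40L from T cells and signals through TRAF adaptors to NF-kB.

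RNA was sequenced from sorted eYFP-positive brain microglia in 5 libraries of 2 groups. The 3 A20 deletion libraries carry the genotype label eYFP-A20Dmg and are described as fully deficient for A20 (Tnfaip3), an enzyme that edits ubiquitin chains and thereby limits NF-kB signalling. The 2 control libraries came from eYFP-A20fl/wt Cx3cr1-CreERT2/+ mice, which have 1 floxed and 1 wild-type A20 allele and are called partially deficient. All mice were on the C57Bl/6 background, were 4 weeks old and had received 2 mg tamoxifen on postnatal days 14 and 16. The control genotype holds a tamoxifen-activated Cre recombinase in the Cx3cr1 locus, which is active in microglia and also in border macrophages and monocytes, and which interrupts 1 Cx3cr1 allele. The labels do not spell out the Cre or the A20 alleles of the deletion genotype, so the groups may differ in more than A20. No label states that each library is a different animal. By Xist and Y-linked counts the 2 controls differ in sex, as A20 deletion replicate 1 does from replicates 2 and 3. The spread behind the p-values therefore includes differences between mice. Whether A20 deletion replicates 2 and 3 are separate mice is not known. Their counts were the most alike of any pair of libraries (chi-square per degree of freedom 15.5, against 53.1 to 143.5 in the other pairs).

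The libraries held 9726334 to 12883827 counts in the A20 deletion group and 13946211 and 15275199 in the controls, and 12240 genes were tested. The libraries within a group were not alike. A20 deletion replicate 1 and control replicate 1 held Xist counts and almost no Y-linked counts, the other libraries the reverse. The mitochondrial share of counts was 4.63% and 3.56% in A20 deletion replicates 2 and 3, and 0.848% to 1.19% elsewhere. Tnfaip3 stood at 295, 277 and 347 CPM in A20 deletion microglia and at 454 and 94.8 CPM in the controls, and counts over all exons do not check a deletion. The microglial genes Tmem119 and P2ry12 were abundant in every library. Tmem119 stood at 4385, 5203 and 4806 CPM in A20 deletion microglia and at 5236 and 6304 CPM in the controls. P2ry12 stood at 3796, 5317 and 4187 CPM in A20 deletion microglia and at 6588 and 6696 CPM in the controls. Each was lower in the A20 deletion libraries without overlap, as were 18.5% of all genes tested. Neither had an edgeR adjusted p under 0.05 (0.325 for Tmem119 and 0.131 for P2ry12).

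Of the 10 genes, 4 were higher in A20 deletion microglia and 0 were lower. The 4 were Cd40, Cd274, Icosl and Lag3, which are 2 of the 5 costimulatory and 2 of the 5 inhibitory genes. Cd40 was 27.2-fold higher, Cd274 3.09-fold, Icosl 2.06-fold and Lag3 1.98-fold (edgeR's quasi-likelihood test with Benjamini-Hochberg adjustment over all 12240 genes, threshold 0.05, n = 3 and 2). Over all genes tested 2.59% were called, 2.08% higher and 0.507% lower. At an unadjusted p under 0.05 stood 6 of the 9 tested members, among 21% of all genes. The tested members had a median log2 fold change of 0.98, against 0.05 over all genes. Cd40 entered the test only through its counts in the A20 deletion libraries, and without it the median of the other 8 was 0.62. The groups did not overlap in 6 members that stood higher in the A20 deletion libraries and 2 that stood lower, where 21.8% and 18.5% of all genes did so. These are bulk values, in which more cells of a type and more RNA per cell cannot be told apart.

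**Figure D1:**
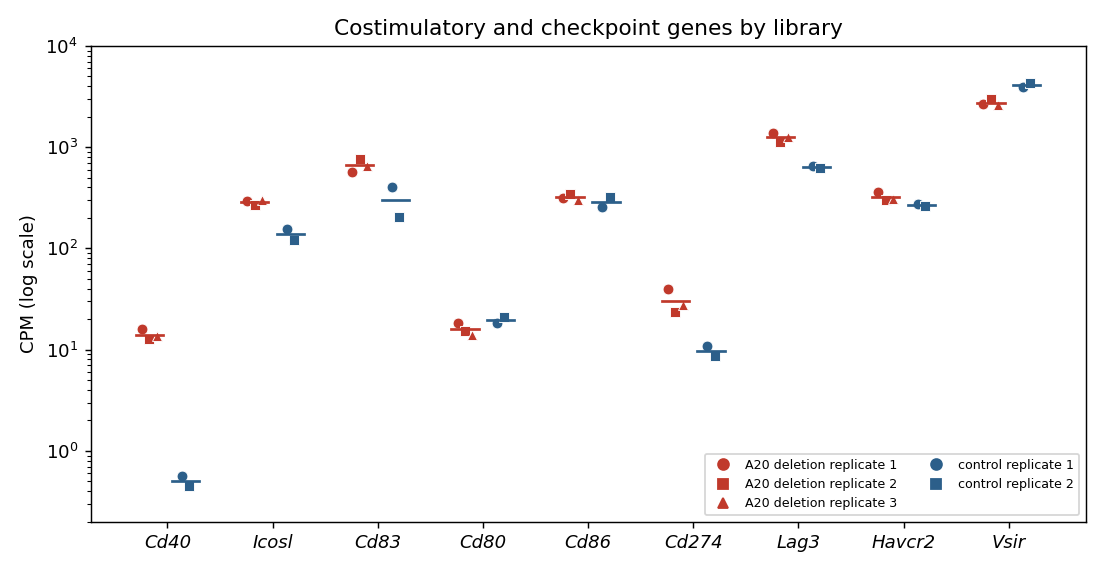
CPM (read counts relative to the scaled library total, log scale) of 9 of the 10 genes in each of the 3 A20 deletion libraries (red) and 2 control libraries (blue); short lines are group means, and Pdcd1lg2 is not drawn because it was at 0 in both controls. The 3 A20 deletion libraries lie above both controls for Cd40, Icosl, Cd83, Cd274, Lag3 and Havcr2, and below both for Cd80 and Vsir.

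Cd40 (ENSMUSG00000017652, GRCm38 chromosome 2, 165055627 to 165072948, plus strand) was close to silent in the controls. It stood at 15.9, 12.7 and 13.6 CPM in A20 deletion replicates 1 to 3 and at 0.569 and 0.449 CPM in control replicates 1 and 2. The A20 deletion libraries lay close together, and the lowest of them was 22.4-fold above the higher control. The counts behind these levels were 184, 162 and 133 in the A20 deletion libraries and 8 and 7 in the controls. The ratio of pooled counts was 27.8, with an exact 95% interval of 16.7 to 50.02 that covers counting error only, since the reads carry no molecular identifiers. Cd40 averaged 14.1 ± 1.67 CPM in A20 deletion microglia and 0.509 ± 0.0849 CPM in control microglia (SD, n = 3 and 2), a log2 fold change of 4.77 (SE 0.32; by edgeR, adjusted p = 0.00224) and rank 7 by p among all genes tested. Between the Xist-positive libraries (A20 deletion replicate 1 and control replicate 1) the log2 difference was 4.72, and between the others it was 4.78. Without control replicate 2 the log2 fold change was 4.55, and this was the 1 alternative of 17 in which Cd40 did not pass. Both this fit and the one without control replicate 1 (log2 4.90) leave 1 control. They take their spread from the A20 deletion libraries alone, so passing or not passing there says little of Cd40 itself.

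The ligand for ICOS was the second costimulatory gene that rose. Icosl (ENSMUSG00000000732, chromosome 10, 78069302 to 78083913, plus strand) stood at 291, 268 and 298 CPM in A20 deletion microglia and at 156 and 122 CPM in the controls. Its A20 deletion libraries varied by no more than 1.11-fold, and all lay above both controls. The means were 286 ± 15.9 CPM in A20 deletion microglia and 139 ± 24.3 CPM in control microglia (SD, n = 3 and 2), a log2 fold change of 1.04 (SE 0.18; by edgeR, adjusted p = 0.0329). The within-sex differences were 0.90 for the Xist-positive pair and 1.21 for the other libraries. Icosl did not pass when A20 deletion replicate 2 or 3 was left out (log2 1.10 and 1.02, edgeR adjusted p = 0.0794 and 0.121). Nor did it pass without control replicate 1 (log2 1.19) or 2 (log2 0.82). Those 2 fits leave 1 control and take their spread from the A20 deletion libraries alone, so not passing there says little of Icosl itself.

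Cd83, Cd86 and Cd80 were not called. Cd83 (ENSMUSG00000015396, chromosome 13, 43784775 to 43803132), a marker of mature dendritic cells that stabilises MHC class II and CD86 on the surface, stood at 566, 758 and 654 CPM in A20 deletion microglia and at 402 and 205 CPM in the controls. The controls differed from each other by 0.97 on the log2 scale, almost as much as the groups did. The log2 fold change of 1.12 (SE 0.30) did not pass (edgeR adjusted p = 0.115, n = 3 and 2). It was 0.50 between the Xist-positive libraries and 1.78 between the others, a difference that was not tested. Without A20 deletion replicate 1 Cd83 passed (log2 1.19, edgeR adjusted p = 0.0159), in a fit that called 1902 genes higher and 2021 lower of 12120 tested. It also passed with DESeq2 (adjusted p = 0.0116), which called 9.07% of all genes. In edgeR with no filter it passed as well (adjusted p = 9.83e-05), where 1048 genes were called higher and 653 lower of 20699 tested.

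The pair of CD28 ligands showed no detected difference. Cd86 (ENSMUSG00000022901, chromosome 16, 36603869 to 36666081, minus strand) was well expressed, with 313, 341 and 302 CPM in A20 deletion microglia against 257 and 320 CPM in the controls. The groups overlapped, and the difference was 0.14 on the log2 scale (SE 0.17; by edgeR, adjusted p = 0.632, n = 3 and 2), or -0.05 without control replicate 1. Cd80 (ENSMUSG00000075122, chromosome 16, 38455561 to 38496335, plus strand) was lower in abundance, at 18.3, 15.3 and 13.9 CPM in A20 deletion microglia and 18.4 and 21.1 CPM in the controls. A20 deletion replicate 1 lay just below control replicate 1, and the other A20 deletion libraries lay lower. The log2 fold change of -0.32 (SE 0.21) did not pass (edgeR adjusted p = 0.394). Per kilobase of exon, Cd86 exceeded Cd80 in every library, by 17.3-, 22.6- and 21.9-fold in the A20 deletion libraries and 14.2- and 15.4-fold in the controls.

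On the inhibitory side Cd274, which encodes PD-L1, showed the largest fitted difference of its side. Cd274 (ENSMUSG00000016496, chromosome 19, 29367455 to 29388095, plus strand) stood at 39.5, 23.7 and 27.5 CPM in A20 deletion replicates 1 to 3 and at 10.9 and 8.6 CPM in control replicates 1 and 2. Replicate 1 was the highest A20 deletion library, 1.66-fold above replicate 2, and all 3 lay above both controls. Cd274 averaged 30.2 ± 8.23 CPM in A20 deletion microglia and 9.78 ± 1.67 CPM in control microglia (SD, n = 3 and 2), a log2 fold change of 1.63 (SE 0.28; by edgeR, adjusted p = 0.0343). It was 1.85 within the Xist-positive pair and 1.57 among the others. Cd274 did not pass in edgeR when A20 deletion replicate 3 was left out (log2 1.70, adjusted p = 0.092). Nor did it pass without control replicate 1 (log2 1.77) or 2 (log2 1.41). Those 2 fits leave 1 control and take their spread from the A20 deletion libraries alone, so not passing there says little of Cd274 itself. The GENCODE M21 annotation places 1 antisense gene over 511 exon bases of Cd274, which has 3.62 kb of exon. The strand setting of the counting is not given in the sources used here. Over the shared bases, reads of this gene and of Cd274 therefore cannot be told apart.

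Pdcd1lg2 (ENSMUSG00000016498, chromosome 19, 29410919 to 29471161, plus strand) begins 22823 bases downstream of Cd274 and encodes PD-L2, the other ligand of PD-1. It was not detectable in most libraries, with 2, 1 and 0 counts in the A20 deletion libraries and 0 and 0 in the controls. It was not tested, and no fold is given. A count of 3 corresponds to 0.236 to 0.306 CPM in A20 deletion microglia and 0.192 and 0.213 CPM in the controls, which is the level below which nothing can be said of Pdcd1lg2 here. The PD-1 ligand transcripts in these libraries were therefore almost all Cd274.

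Promoter sequence is shown for the 2 members whose window upstream of the RefSeq start held a match to the NF-kB (kB) consensus, since A20 restrains that factor. Of the 10 genes, 6 had an entry in the RefSeq promoter table (GRCm38.p6), namely Vsir, Icosl, Havcr2, Cd80, Cd274 and Pdcd1lg2. The 250 bases before each start were searched on both strands for the kB consensus, for GAAANNGAAA (the core of an interferon-stimulated response element) and for TTCNNNGAA (a STAT site). Among all 32851 promoters of this length 7.25% held the first, 2.98% the second and 7.02% the third. Only Icosl and Pdcd1lg2 of the 6 held a kB match, and none of the 6 held either of the others. Capitals mark the kB match, which in Pdcd1lg2 reads as a match on both strands. The Icosl stretch is chr10:78069118-78069301 and the Pdcd1lg2 stretch chr19:29410669-29410918, both on the plus strand, and the Icosl one stops at the first annotated exon.
Icosl: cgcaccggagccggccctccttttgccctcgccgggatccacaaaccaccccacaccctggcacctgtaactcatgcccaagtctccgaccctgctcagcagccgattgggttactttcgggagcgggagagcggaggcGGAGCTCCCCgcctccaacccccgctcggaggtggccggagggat
Pdcd1lg2: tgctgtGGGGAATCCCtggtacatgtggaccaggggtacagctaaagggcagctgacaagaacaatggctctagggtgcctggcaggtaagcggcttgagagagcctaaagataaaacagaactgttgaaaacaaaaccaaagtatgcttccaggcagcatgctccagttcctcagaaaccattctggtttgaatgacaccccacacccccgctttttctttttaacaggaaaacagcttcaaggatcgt
The Icosl match lies 111 to 102 bases before the start and the Pdcd1lg2 match 244 to 235 bases before it. One of these genes rose and the other was at the edge of detection, and Cd274, which rose, had no match in its window. The full Icosl window held 23 CpG dinucleotides and was 68.8% G and C, against 3 CpG and 48.4% in that of Pdcd1lg2. A match is a run of letters and not a shown binding site.

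Lag3 was the most abundant of the genes that rose. Lag3 (ENSMUSG00000030124, chromosome 6, 124904361 to 124911705, minus strand) encodes an inhibitory receptor related to CD4 that binds MHC class II, and it is best known from T and NK cells. It stood at 1383, 1131 and 1260 CPM in A20 deletion microglia and at 656 and 618 CPM in the controls. Within each group the libraries varied far less than the groups differed, and the lowest A20 deletion library was 1.72-fold above the higher control. Lag3 averaged 1258 ± 126 CPM in A20 deletion microglia and 637 ± 27.3 CPM in control microglia (SD, n = 3 and 2), a log2 fold change of 0.98 (SE 0.16; by edgeR, adjusted p = 0.0277). The within-sex differences were 1.08 for the Xist-positive pair and 0.95 for the others. Lag3 did not pass when A20 deletion replicate 2 or 3 was left out (log2 1.06 and 0.99, edgeR adjusted p = 0.0524 and 0.113). Nor did it pass without control replicate 1 (log2 0.98) or 2 (log2 0.89). Those 2 fits leave 1 control and take their spread from the A20 deletion libraries alone, so not passing there says little of Lag3 itself.

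Because Lag3 is also a lymphocyte gene, T and NK cell markers are given beside it. The T cell receptor complex genes Cd3e, Cd3d and Cd3g together had 16, 13 and 11 counts in the A20 deletion libraries and 0 and 0 in the controls. Lag3 had 998, 1106 and 1125 counts for each of these Cd3 counts in A20 deletion replicates 1 to 3. Of 18 T cell markers 5 were tested and 0 passed. Of the 5 tested, 4 lay higher without overlap and 1, Il7r, lower, where 21.8% and 18.5% of all genes did so. Cd4 stood at 3.985, 2.67 and 2.75 CPM in A20 deletion microglia and at 0.569 and 1.03 CPM in the controls (edgeR adjusted p = 0.131). Of the 18, 9 were at 0 in both controls, and each of these had counts in the A20 deletion libraries. Summed over the list the T cell markers reached 66.6 to 76.3 CPM in A20 deletion microglia and 84.5 and 91.3 CPM in the controls, most of it Il7r. Without Il7r the sums were 10.3 to 13.5 CPM in A20 deletion microglia and 2.92 and 3.21 CPM in the controls. Of 11 NK cell markers 1 was tested and 0 passed, and 8 were at 0 in both controls, 5 of which had counts in the A20 deletion libraries. Klrk1, an activating receptor, had 8, 5 and 6 counts in the A20 deletion libraries and 0 and 0 in the controls, and the granule gene Nkg7 had 10, 8 and 2 in the A20 deletion libraries and 1 and 0 in the controls. The granzyme genes Gzma (8, 3 and 0 counts) and Gzmb (3, 7 and 0) and the perforin gene Prf1 (6, 0 and 0) were counted in A20 deletion replicates only, against 0 in both controls. The list summed to 1.43 to 4.5 CPM in A20 deletion microglia and 2.63 and 5.84 CPM in the controls, most of it Klrd1 in the controls. Without Klrd1 the sums were 3.47, 1.97 and 0.815 CPM in A20 deletion replicates 1 to 3 and 0.356 and 0.385 CPM in the controls. The part of T and NK cells in the level of Lag3 was not tested.

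Havcr2 and Vsir are the remaining inhibitory genes, and neither passed. Havcr2 (ENSMUSG00000020399, chromosome 11, 46454935 to 46481255, plus strand) encodes TIM-3, a receptor for galectin-9 and phosphatidylserine that microglia express. It stood at 360, 300 and 307 CPM in A20 deletion microglia and at 276 and 260 CPM in the controls (log2 fold change 0.27, SE 0.16, edgeR adjusted p = 0.362, n = 3 and 2). The A20 deletion libraries lay above both controls, but the lowest of them by only 1.09-fold.

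Vsir (ENSMUSG00000020101, chromosome 10, 60346851 to 60372684, plus strand) encodes VISTA, an inhibitory B7 relative abundant on resting microglia. It stood at 2666, 2979 and 2600 CPM in A20 deletion microglia and at 3942 and 4319 CPM in the controls. All A20 deletion libraries lay below both controls. The log2 fold change of -0.59 (SE 0.13) did not pass (edgeR adjusted p = 0.0774, n = 3 and 2). The within-sex differences were -0.56 for the Xist-positive pair and -0.63 for the others. Vsir passed without A20 deletion replicate 1 (log2 -0.59, edgeR adjusted p = 0.00976), where 1902 genes were called higher and 2021 lower of 12120 tested. It also passed in edgeR with no filter (adjusted p = 0.0406), where 1048 were called higher and 653 lower of 20699. With sex as a term it passed too (edgeR adjusted p = 0.0408), where 563 were called higher and 261 lower of 12240. DESeq2 also called Vsir (adjusted p = 0.00221). DESeq2 called 6 of the 9 tested members, the 4 above with Cd83 and Vsir, where it called 9.07% of all genes.

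**Figure D2:**
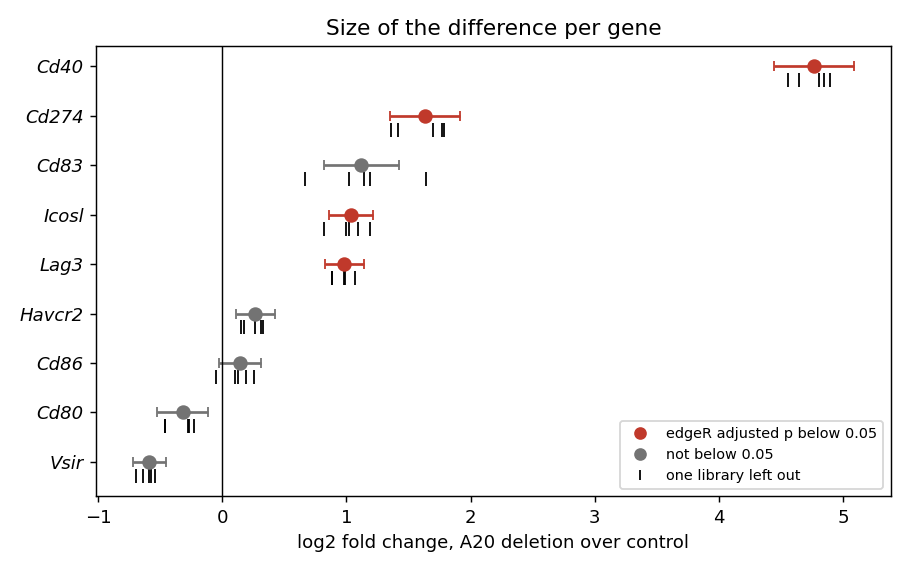
Log2 fold change of each tested gene, A20 deletion over control, with its approximate standard error (n = 3 and 2); red marks an edgeR adjusted p below 0.05, and black ticks give the value with 1 of the 5 libraries left out. Cd40 stands apart at 4.77, and the ticks of Cd83 spread from 0.66 to 1.64.

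Levels can be compared between genes only per length, so CPM was divided by the kilobases of merged exons. On this scale of levels Lag3 had 656, 536 and 598 CPM per kb in the A20 deletion libraries and 311 and 293 in the controls. Vsir had 532, 594 and 519 CPM per kb in the A20 deletion libraries and 786 and 861 in the controls. Vsir was thus the most abundant of the 10 genes in both controls, whereas in the A20 deletion libraries Lag3 and Vsir were on a par, with Lag3 ahead in replicates 1 and 3 and Vsir in replicate 2. The ratio of Lag3 to Vsir was 1.23, 0.902 and 1.15 in the A20 deletion libraries and 0.396 and 0.34 in the controls, and this ratio does not depend on how libraries are scaled. Vsir made up 31.1% to 34.9% of the summed level of the 10 genes in the A20 deletion libraries and 53.6% and 59.3% in the controls. This pairing was chosen after the values were seen and has no test.

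Below these stood Cd83, Havcr2, Cd86 and Icosl. In the A20 deletion libraries the order was Cd83 (220 to 295 CPM per kb), Havcr2 (110.2 to 132), Cd86 (82.5 to 93.2) and Icosl (57.9 to 64.5), with no overlap between neighbours. In the controls Cd83 (79.7 and 156) spanned Havcr2 (95.5 and 101) and overlapped Cd86 (70.3 and 87.5), and Icosl (26.4 and 33.8) lay below them. The scarcest detected genes changed places. Cd274 had 10.9, 6.55 and 7.59 CPM per kb in the A20 deletion libraries and 3.02 and 2.37 in the controls, and Cd80 had 4.94, 4.12 and 3.77 in the A20 deletion libraries and 4.96 and 5.7 in the controls. Cd274 therefore exceeded Cd80 in all 3 A20 deletion libraries (ratios 2.21, 1.59 and 2.02) and was below it in both controls (0.61 and 0.416). Cd40 reached the level of Cd80 in the A20 deletion libraries (ratios 0.948, 0.908 and 1.05) and was far under it in the controls (0.0337 and 0.0231).

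**Figure D3:**
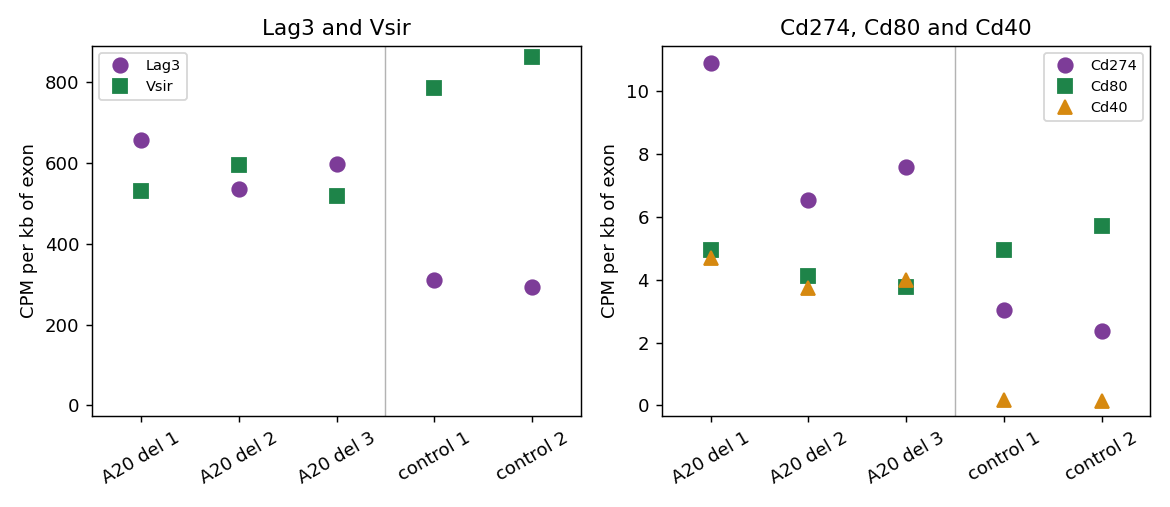
Level per kilobase of exon (CPM per kb, linear scale) in the 3 A20 deletion libraries (left of the line) and 2 controls (right of it), for Lag3 and Vsir on the left and Cd274, Cd80 and Cd40 on the right. Lag3 and Vsir lie between 519 and 656 in the A20 deletion libraries, and in the controls Vsir is at 786 and 861 and Lag3 at 311 and 293.

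The genes whose pattern was most like each called member were found by the root mean square difference of log2 CPM over the 5 libraries, each gene centred on its own mean. For Cd40 they were Cd69 (0.18), Phf11a (0.20) and H2-Q7 (0.20). For Cd274 they were Capn5 (0.07), Ube2l6 (0.12) and Ly9 (0.13), for Icosl Shtn1 (0.03), Afmid (0.08) and Igbp1 (0.09), and for Lag3 Anxa5 (0.07), P3h3 (0.08) and Rhbdf2 (0.08). No gene was shared between these sets of 3.

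Related genes were read from the same fit. Over 5 lists of partners, other costimulators, CD40 signalling, transcription factors and surface turnover, 51 of 69 genes were tested, 4 rose and 0 fell. The shares over all genes tested, for these and each list below, were 2.08% higher and 0.507% lower. Among 13 partner receptors and ligands 8 were tested and 0 passed (median log2 fold change 0.53). Lgals9, which encodes the TIM-3 ligand galectin-9, stood at 414, 412 and 415 CPM in A20 deletion microglia and at 273 and 274 CPM in the controls (log2 0.60, edgeR adjusted p = 0.0868). The PD-1 gene Pdcd1 stood at 12.1, 13.5 and 15.6 CPM in A20 deletion microglia and at 3.56 and 6.22 CPM in the controls (log2 1.49, edgeR adjusted p = 0.0588). Both lay above the controls in every A20 deletion library, where 21.8% of all tested genes did so, and neither passed. Cd28, the other receptor for CD80 and CD86, had 7, 0 and 3 counts in the A20 deletion libraries and 0 and 0 in the controls and was not tested. Cd40lg and Ctla4, which encode the T cell ligand of CD40 and an inhibitory T cell receptor for CD80 and CD86, had 0 counts in all 5 libraries, where 3 counts correspond to 0.192 to 0.306 CPM.

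Of 22 other B7, TNF superfamily and nectin costimulators 21 were found, 9 were tested and 0 passed (median log2 fold change 0.22). Cd276, which encodes the B7 family protein B7-H3, stood at 10.8, 23.8 and 18.2 CPM in A20 deletion microglia and at 44.03 and 71.3 CPM in the controls (log2 -1.71, edgeR adjusted p = 0.0552). Cd48, a ligand of the SLAM family, stood at 92.7, 108.6 and 103.9 CPM in A20 deletion microglia and at 49.4 and 61.2 CPM in the controls (log2 0.88, edgeR adjusted p = 0.0554). The groups did not overlap in either gene, in opposite directions, where 21.8% of all tested genes did so higher and 18.5% lower. Vtcn1, Btn2a2, Tnfsf4, Cd70 and Btla had 0 counts in all 5 libraries.

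All 14 genes of the CD40 signalling chain were tested, and 3 rose and 0 fell (median log2 fold change 0.08). Over all genes tested 2.08% rose and 0.507% fell. Traf1, an adaptor that is itself an NF-kB target, had 32, 34 and 28 counts in the A20 deletion libraries against 0 and 1 in the controls, a ratio of 81.8 with an exact 95% interval of 14.3 to 3264 for counting error. Traf1, like Cd40, entered the test only through its counts in the A20 deletion libraries. Relb, an NF-kB subunit of the non-canonical branch, stood at 72.5, 72.9 and 92.4 CPM in A20 deletion microglia and at 32.4 and 33.9 CPM in the controls. The ubiquitin ligase gene Birc3 stood at 83.1, 101.4 and 90.96 CPM in A20 deletion microglia and at 48.4 and 39.5 CPM in the controls. Their log2 fold changes were 1.26 for Relb and 1.06 for Birc3, and edgeR adjusted p was 0.0255 for Traf1, 0.0215 for Relb and 0.0343 for Birc3. The other adaptors Traf2, Traf3, Traf5 and Traf6 did not pass, at 0.16, 0.26, -0.01 and -0.42 on the log2 scale of differences, and these 4 were named after their values were seen.

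Of 11 transcription factors reported to act on promoters of the members 10 were tested, 1 rose and 0 fell (median log2 fold change 0.03). Irf1 stood at 124, 98.5 and 84.95 CPM in A20 deletion microglia and at 82.2 and 67.9 CPM in the controls and did not pass (edgeR adjusted p = 0.271). The 10 genes that act on the turnover of these proteins at the surface were all tested, and 0 passed (median log2 fold change -0.32). Cmtm6, which keeps PD-L1 at the surface, stood at 1389, 1203 and 1072 CPM in A20 deletion microglia and at 1995 and 2005 CPM in the controls (log2 -0.71, edgeR adjusted p = 0.0724). Its direction was opposite to that of Cd274. The 4 calls over these 5 lists were not kept when either control was left out, in fits that take their spread from the A20 deletion libraries alone. These calls became 2 when A20 deletion replicate 2 was left out and 1 when replicate 3 was. Without replicate 1 they became 12 higher and 15 lower, where 1902 genes were called higher and 2021 lower of 12120 tested.

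**Figure D4:**
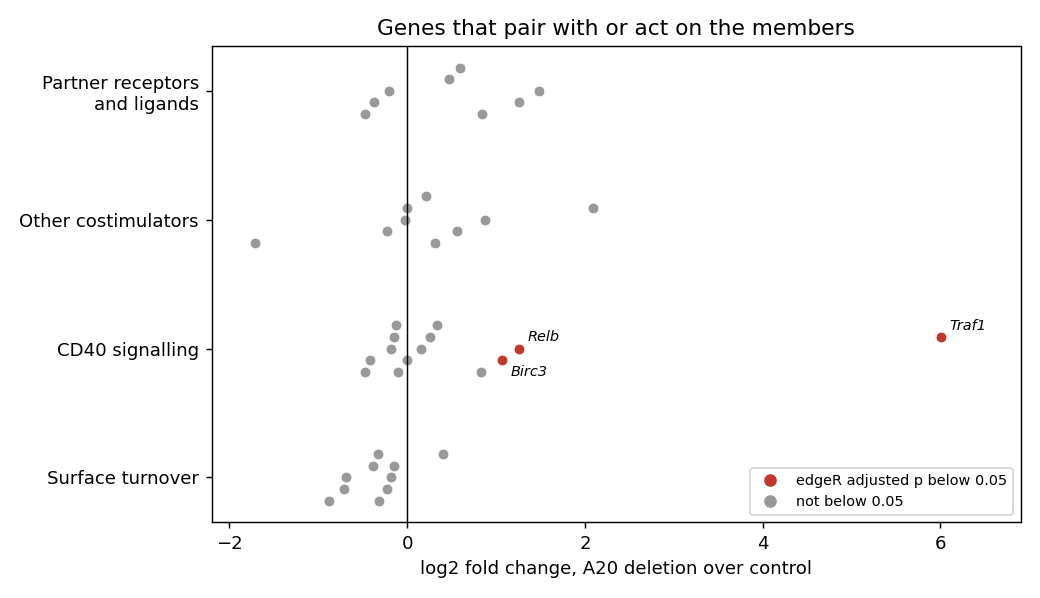
Log2 fold change, A20 deletion over control, of the 41 tested genes in 4 of the related lists; red marks an edgeR adjusted p below 0.05 (n = 3 and 2). Traf1, Relb and Birc3 are the 3 that passed among these, and the fitted value of Traf1 rests on 1 count in the controls.

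Markers of other antigen-presenting or brain cells moved in part with the groups. The counts that pass below stand beside 2.08% higher and 0.507% lower over all genes tested. Of 10 dendritic cell markers 7 were tested and 1 passed, Itgax, which activated microglia also express, at 342, 151 and 226 CPM in A20 deletion microglia and 43.3 and 35.4 CPM in the controls (edgeR adjusted p = 0.0174). The list summed to 1110 to 1473 CPM in A20 deletion microglia and 756 and 872 CPM in the controls, most of it Siglech, which is also on the microglia list. Cd209a had 0 counts in all libraries, and Zbtb46 stood at 7.97 to 8.66 CPM in A20 deletion microglia and 4.34 and 5.26 CPM in the controls. Ccr7 had 8, 26 and 30 counts in the A20 deletion libraries and 2 and 0 in the controls. Itgae went the other way, at 2.43, 6.60 and 5.40 CPM in A20 deletion microglia and 10.53 and 10.52 CPM in the controls. Of the 7 tested, 5 lay higher and 1 lower without overlap, where 21.8% and 18.5% of all genes did so. Of 11 monocyte and border macrophage markers 10 were tested and 1 passed, Plac8 (edgeR adjusted p = 0.00792). It stood at 30.7, 16.7 and 27.1 CPM in A20 deletion microglia and at 2.99 and 2.63 CPM in the controls. The list sums were 98.1 to 139 CPM in A20 deletion microglia and 71.9 and 134 CPM in the controls, with Mrc1 the most abundant. Of the 10 tested, 3 lay higher and 1 lower without overlap. Ly6c2 had 12, 7 and 12 counts in the A20 deletion libraries and 1 and 0 in the controls. Ccr2 went the other way, at 8.14, 5.19 and 5.5 CPM in A20 deletion microglia and 11.5 and 8.21 CPM in the controls. Of 8 B cell markers 2 were tested and 0 passed, and the sums of 386 to 425 CPM in A20 deletion microglia and 275 and 341 CPM in the controls were mostly Ighm.

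Of 8 neutrophil markers 3 were tested and 0 passed, with sums of 0.55 to 9.01 CPM in A20 deletion microglia and 0.321 and 17 CPM in the controls. Of 10 neuron and glia markers 9 were tested and 1 passed, Aldh1l1 (edgeR adjusted p = 0.0343), with sums of 133 to 226 CPM in A20 deletion microglia and 82.9 and 103 CPM in the controls. Of 10 microglia markers all were tested, Aif1 rose and Fcrls fell, and the sums were 36420 to 40520 CPM in A20 deletion microglia and 50610 and 55420 CPM in the controls. The part of these cell types in the levels of Cd40, Cd274, Icosl and Lag3 was not tested either. With the mitochondrial share of the libraries as a term, and with A20 deletion replicates 2 and 3 omitted together, the same 4 members were called. In the fit without both, the 1 remaining A20 deletion library is assumed to vary like the controls.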

How the data were processed

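The values the authors deposited are raw counts per Ensembl gene, 1 column for each of 5 libraries. Per the submitters' processing notes, the tools were STAR 2.4.0j, featureCounts and DESeq2 1.22.1 with build GRCm38. The strand setting, the multi-mapping rule and the annotation release were not given in the sources used here. Symbols came from GENCODE M21 for 40254 of 41388 genes. In R 4.3.3, edgeR 4.0.16 kept 12240 genes (filterByExpr, minimum count 10, minimum total 15) and used TMM scaling. Its quasi-likelihood test compared A20 deletion with control, two-sided, with no covariate and Benjamini-Hochberg adjustment over all genes tested. The procedure was also run on counts simulated from the fitted spread, which checks the code and not the calls made here.

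Levels are CPM on the scaled totals with ± as SD between libraries, and the SE of a log2 fold change, taken from its F statistic, is approximate. Within-sex differences are log2 CPM differences between libraries split by Xist and Y-linked counts. Precision is limited by 9726334 to 15275199 counts per library. Every pair of libraries differed by more than sampling noise (chi-square per degree of freedom 15.5 to 143.5). The lowest value was that of A20 deletion replicates 2 and 3, and the next lowest, 53.1, that of the 2 controls.

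The members, lists and tests were chosen with earlier results of these data known. Named are all 10 members, up to 4 genes with the smallest p and, in marker lists, the most abundant gene of each of 13 other lists, and the 3 genes most like each called member (predicted genes and clones left out). Genes named for having 0 or few counts or as defining markers were chosen after their values were seen. Older symbols served for 2 of 166 list entries, and 1 entry was not found. Alternatives were other scalings, other filters, DESeq2 1.42.0, limma 3.58.1 (voom), a robust fit, terms for replicate number, sex and mitochondrial share, and leaving out libraries. Some genes that this rule names are not reported here.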

Additional observations from a re-analysis of the deposited data

How the results depend on the processing

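Over the 17 alternatives every tested member kept the sign of its log2 fold change except Cd86, which was -0.052 without control replicate 1. Cd40 passed in 16 alternatives, Cd274 in 14, and Icosl and Lag3 in 12 each. Members called higher numbered 4, with 2 under the replicate block (Cd40 and Cd274, while edgeR gave Icosl an adjusted p of 0.0663 and Lag3 0.0716) and 0 to 5 with 1 library left out; the lone control left in such a fit is assumed to vary like the A20 deletion libraries. Without control replicate 2 edgeR called 0 members, 6 stood at an unadjusted p under 0.05 (1323 of all genes), and DESeq2 on all libraries called 6. Members called lower numbered 0, and 1 (Vsir) with no filter, with DESeq2 and with sex as a term, and 0 to 1 with 1 library left out.

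Partner and pathway genes higher numbered 4, and 9 with no filter, 9 with DESeq2, 2 under the replicate block, 8 with sex as a term and 0 to 12 with 1 library left out. Those lower numbered 0, and 4 with no filter, 2 with DESeq2, 1 under the replicate block, 2 with sex, 1 with the mitochondrial share, 1 with A20 deletion replicates 2 and 3 omitted, and 0 to 15 with 1 library left out. All genes higher numbered 255, and 1048 with no filter, 744 with DESeq2, 166 with limma-voom, 563 with sex and 0 to 1902 with 1 library left out. All genes lower numbered 62, and 653 with no filter, 366 with DESeq2, 32 under the replicate block, 261 with sex and 0 to 2021 with 1 library left out. The cause of these shifts was not tested. Fits with 1 library left out hold fewer libraries, yet without A20 deletion replicate 1 the calls went from 255 to 1902 higher and from 62 to 2021 lower. The labels give both groups replicate numbers 1 and 2 but do not say that a number marks a shared animal or day. The deviations of same-numbered libraries from their group means correlated at 0.26 and 0.17 across genes. Those of A20 deletion replicate 3 and control replicate 2, which share no number, correlated at 0.22. Number 1 was also the Xist-positive library of both groups. With only 2 same-numbered pairs the number was not taken as a pairing. Depth limits Pdcd1lg2, with 2, 1 and 0 counts in the A20 deletion libraries and 0 and 0 in the controls. No alternative changes these counts, and Pdcd1lg2 was not followed over them.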
